A study of Mus musculus with 18 samples.

Results

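The immunity-related GTPases (IRGs) are a family of interferon-inducible GTPases of the mouse. This account covers 7 of them, Irgm1, Irgm2, Igtp, Iigp1, Ifi47, Tgtp1 and Tgtp2, among the 38887 genes measured in each library. The 7 genes were taken by name from a fixed list, and each symbol was matched to 1 Ensembl identifier. The rule uses no measured value, but the list was drawn up with earlier results of these data known. RNA was sequenced from bone marrow-derived macrophages (BMMs), which are bone marrow cells grown for 6 days with the growth factor M-CSF. They came from female C57BL/6J mice of 3 genotypes, aged 10 to 23 weeks. Each genotype gave 3 untreated libraries and 3 libraries of cells treated for 4 h with 100 ng/ml LPS, the bacterial lipopolysaccharide, which makes 18 libraries in 6 groups.

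All genotypes carry the B6.129P2-Lyz2tm1(cre)Ifo/J allele, in which Cre recombinase is expressed from the Lyz2 promoter of myeloid cells. The mice described with this allele alone are called WT. The zygosity of the allele is not given in the sources used here. GILZ KO mice additionally have loxP sites around exon 6 of Tsc22d3, the gene of glucocorticoid-induced leucine zipper (GILZ). GILZ TG mice have a Gilz cDNA in the ROSA26 locus behind a loxP-flanked stop cassette, so that Cre switches on the overexpression in myeloid cells. The authors give 3 mice per group for these data and describe the samples as independent preparations. The replicates carry numbers in the labels, but nothing states whether a number is the same animal untreated and after LPS. The p-values measure the spread between these libraries.

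IRG proteins protect cells from bacteria and parasites that live in vacuoles. They are divided by a motif in their nucleotide-binding loop. The GMS proteins Irgm1, Irgm2 and Igtp act as regulators on the cell's own membranes, where they hold the effectors inactive. The GKS proteins Iigp1, Ifi47, Tgtp1 and Tgtp2 are effectors, which load onto the membrane of the pathogen vacuole and help to break it. Their genes are induced by interferon gamma, and in macrophages given LPS by the interferon beta that these cells release.

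In the GRCm38 annotation, 6 of the 7 genes, all but Iigp1, lie on chromosome 11 in 2 clusters. Irgm1 (ENSMUSG00000046879, 48861968 to 48871683), Tgtp1 (ENSMUSG00000078922, 48985327 to 48994172) and Tgtp2 (ENSMUSG00000078921, 49057194 to 49064206) are on the minus strand. Beside them, Ifi47 (ENSMUSG00000078920, 49076587 to 49096974) is on the plus strand. At a distance of 9102581 bases from Ifi47, Igtp (ENSMUSG00000078853, 58199556 to 58207591) and Irgm2 (ENSMUSG00000069874, 58199618 to 58222782) share the plus strand, and their gene models overlap by 7974 bases.

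The promoters of the members were searched because the genes moved together with LPS. RefSeq windows of GRCm38.p6 with 250 bases before and 50 bases after the transcription start were given for 6 members, and Iigp1 is named only. They were searched on both strands for 3 motifs. The core of the interferon-stimulated response element (ISRE) is GAAA, any 2 bases and GAAA. The gamma-activated sequence (GAS) is TTC, any 3 bases and GAA, and the NF-kB motif is GGG, any 2 bases and TTTCC. The stretches below run 5′ to 3′ on the strand of the gene and end at or before the transcription start. Stretches are shown only for the 5 members with an ISRE match, and capitals mark matches to the ISRE and GAS letters.
Irgm1, chr11:48871421-48871500, minus strand: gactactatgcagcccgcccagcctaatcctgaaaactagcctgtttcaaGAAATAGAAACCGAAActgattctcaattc
Irgm2, chr11:58214863-58214962, plus strand: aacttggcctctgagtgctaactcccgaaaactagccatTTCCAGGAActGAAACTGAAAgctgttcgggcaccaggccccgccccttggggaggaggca
Igtp, chr11:58199472-58199555, plus strand: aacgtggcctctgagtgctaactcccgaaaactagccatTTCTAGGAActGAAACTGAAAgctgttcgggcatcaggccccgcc
Tgtp1, chr11:48992274-48992373, minus strand: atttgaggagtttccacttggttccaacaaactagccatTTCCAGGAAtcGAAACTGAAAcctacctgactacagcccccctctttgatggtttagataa
Tgtp2, chr11:49064233-49064332, minus strand: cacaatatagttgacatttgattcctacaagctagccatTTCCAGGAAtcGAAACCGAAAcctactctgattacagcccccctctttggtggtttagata

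ISRE letters were found in 5 of the 6 member windows and in 3.44% of all 32851 windows. GAS letters were found in 4 of the 6, and in 8.3% of all windows. In Irgm2, Igtp, Tgtp1 and Tgtp2 the ISRE match starts 11 bases after the start of the GAS match, the same spacing in each. This spacing was present in 5 of all windows (0.0152%), and the fifth belongs to Gm12185, a gene of the same family that overlaps Tgtp1. No other spacing was counted, and this one is that of the members themselves, so the share is a description and not a test. Irgm1 has 2 ISRE matches that overlap each other, starting 30 and 24 bases before the transcription start, and no GAS match. The NF-kB letters were in none of the 6 member windows and in 1.63% of all windows, and the Ifi47 window held no match to the 3 motifs. The windows of Igtp and Irgm2 were 73.5% identical in a global alignment, and those of Tgtp1 and Tgtp2 67.7%. In the GENCODE annotation the Irgm1 stretch lies in an exon of a transcript without a coding sequence, and those of Irgm2 and Tgtp1 lie in introns of longer transcripts of these genes. The stretches of Tgtp1 and Tgtp2 also lie within a transcript of Olfr56 on the opposite strand, outside its exons.

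**Figure D1:**
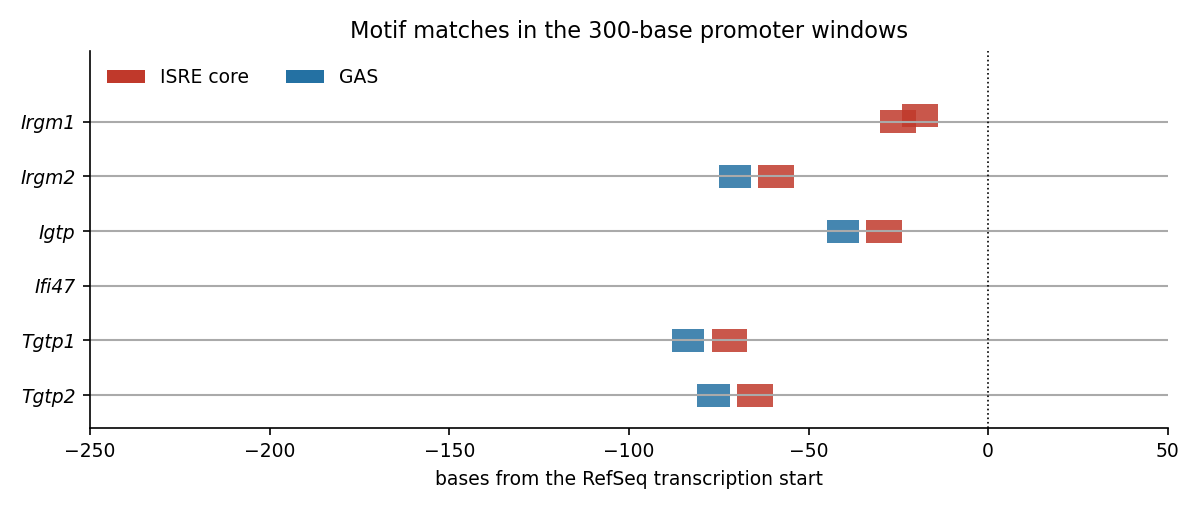
Positions of matches to the ISRE core (red) and GAS (blue) letters in the promoter windows of 6 members, in bases from the RefSeq transcription start (dotted line). In Irgm2, Igtp, Tgtp1 and Tgtp2 the pair has the same spacing at different distances from the start, and the Ifi47 window holds no match.

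Depth was 14583055 to 38557029 counts on genes per library, with the lowest median in GILZ KO after LPS (15491518). Levels are given as TPM, which are scaled for transcript length and total. Tsc22d3 followed the labels: untreated, its mean was 16.5 ± 2.08 TPM for WT, 2.34 ± 0.461 TPM for GILZ KO, and 156 ± 3.93 TPM for GILZ TG (SD, n = 3). After LPS the gap between WT and GILZ KO was smaller, with means of 5.15 ± 0.627 and 2.91 ± 0.392 TPM, and GILZ TG had 132 ± 7.64 TPM. Lyz2, the Cre locus, had 12840 ± 2276 TPM without treatment for WT but only 33.6 ± 10.6 TPM for GILZ KO, with 33.0 ± 18.3 TPM for GILZ TG. Lyz2 thus separates WT from both other genotypes, which bears on each comparison with WT, and its part in them was not tested. All 7 macrophage markers were detected in every group. Of 10 markers of NK and T cells, which make interferon gamma, 0 reached 1 TPM in any library. GILZ TG replicates 1 and 2 carried transcripts listed as markers of other cells. Summed stromal markers were up to 168 TPM in GILZ TG against at most 30.6 TPM in WT and GILZ KO. The paper describes strong induction of extracellular structure genes in 2 of its 3 GILZ TG samples. Other cells and induction in the macrophages cannot be told apart in bulk RNA.

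Irgm1 was the most abundant member in all groups. Its protein regulates the other IRG proteins and is needed for resistance to several intracellular bacteria. In WT macrophages Irgm1 was at 35, 32.9 and 34.6 TPM untreated, and at 778, 691 and 745 TPM after LPS. GILZ KO cells had 43.0, 40.1 and 35.5 TPM untreated, and 647, 696 and 648 TPM after LPS. In GILZ TG cells the levels were 30.5, 31.1 and 35.7 TPM untreated, and 773, 802 and 769 TPM after LPS. The untreated GILZ KO libraries lay above all WT libraries, and after LPS they lay below all GILZ TG libraries. The log2 fold change with LPS was 5.08 ± 0.10 in WT, 4.72 ± 0.10 in GILZ KO and 5.24 ± 0.11 in GILZ TG (SE), the smallest of the 7 in each genotype.

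Irgm2 is a regulator found at the Golgi apparatus. It had 7.93, 7.46 and 7.70 TPM in untreated WT and 289, 264 and 261 TPM after LPS. GILZ KO macrophages contained 10.4, 10.95 and 8.53 TPM of Irgm2 untreated, and 247, 276 and 237 TPM with LPS. In GILZ TG, values of 6.54, 7.42 and 7.92 TPM were measured untreated and 279, 279.9 and 266 TPM after LPS. Untreated GILZ KO libraries were thus above those of both other genotypes without overlap, while the LPS groups overlapped. Fold changes on the log2 scale were 5.77 ± 0.11 in WT, 5.30 ± 0.11 in GILZ KO and 5.86 ± 0.11 in GILZ TG.

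Igtp, also called Irgm3, is a regulator at the endoplasmic reticulum that is needed to restrict Toxoplasma. Untreated WT cells had 9.81, 11.1 and 9.85 TPM, against 538, 488 and 448 TPM after LPS. GILZ KO cells showed 13.2, 13.6 and 12.3 TPM untreated, and 435, 459 and 439.8 TPM after LPS. For GILZ TG the levels were 8.97, 10.9 and 11.9 TPM untreated, and 512, 494 and 483 TPM after LPS. GILZ KO was above all GILZ TG libraries untreated and below all of them after LPS, and no other member showed this without overlap on both sides. LPS raised Igtp by 6.21 ± 0.11 on the log2 scale in WT, 5.72 ± 0.11 in GILZ KO and 6.16 ± 0.11 in GILZ TG. Of all 75-base stretches of Igtp transcripts, the length of the reads, 7.8% also occur in Irgm2, and of those of Irgm2 4.53% occur in Igtp.

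Ifi47 (Irgd) is an effector and was the most abundant of the GKS members. Libraries of untreated WT cells had 11.8, 14.0 and 14.9 TPM, which became 729, 667 and 657 TPM after LPS. In GILZ KO cells it was at 16.6, 16.6 and 14.3 TPM untreated and at 567, 620.2 and 624 TPM after LPS. GILZ TG libraries had 9.52, 12.6 and 14.9 TPM untreated, and 662, 657 and 736 TPM after LPS. Untreated groups overlapped, and after LPS the GILZ KO libraries were below all those of both other genotypes. The response was 6.27 ± 0.16 on the log2 scale in WT, 5.89 ± 0.15 in GILZ KO and 6.40 ± 0.16 in GILZ TG.

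Iigp1 (Irga6), the effector that loads onto the vacuoles of Toxoplasma and Chlamydia, was close to undetectable before LPS. The gene (ENSMUSG00000054072) is on chromosome 18, from 60376027 to 60392634 on the plus strand. In untreated WT it had 0.250, 0.260 and 0.240 TPM, and after LPS 282, 221 and 195 TPM. GILZ KO libraries gave 0.790, 0.430 and 0.140 TPM untreated, and 123, 188 and 166 TPM after LPS. The GILZ TG values were 0.140, 0.0900 and 0.190 TPM untreated, and 217, 235 and 168 TPM after LPS. Untreated levels rested on only 4 to 35 counts per library. After LPS the GILZ KO libraries were below all WT libraries and overlapped with GILZ TG. The fold changes were the largest among the members in all genotypes, 10.47 ± 0.32 in WT, 8.94 ± 0.30 in GILZ KO and 11.13 ± 0.34 in GILZ TG on the log2 scale.

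Tgtp1 and Tgtp2 encode near-identical copies of the effector Irgb6. Of the 75-base stretches of Tgtp1 transcripts 74.63% occur in Tgtp2, and 81.35% of those of Tgtp2 occur in Tgtp1, so the share of reads given to each copy is uncertain. Together they had 2.13, 2.80 and 2.64 TPM in untreated WT, and 677, 527 and 502 TPM after LPS. In GILZ KO the sum was 3.45, 4.89 and 3.13 TPM untreated, and 432, 501 and 475 TPM after LPS. GILZ TG had 1.77, 2.21 and 4.08 TPM untreated, and 592, 584 and 574 TPM after LPS. For the summed counts of both genes the log2 fold change with LPS was 8.40 in WT, 7.50 in GILZ KO and 8.36 in GILZ TG.

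Tgtp2 alone accounted for most of this sum. Untreated means were 2.29 ± 0.250 TPM for WT, 3.00 ± 0.862 TPM for GILZ KO, and 2.45 ± 0.821 TPM for GILZ TG (SD, n = 3). After LPS it was at 461 ± 91.3 TPM, 405 ± 28.6 TPM and 471 ± 25.6 TPM, and the 3 GILZ KO libraries were below those of GILZ TG. Tgtp1 was detected in untreated cells with at most 15.96 counts per library, and 2 of the GILZ TG libraries had 0 counts. After LPS, Tgtp1 was at 115, 92.0 and 118 TPM in WT, 57.4, 70.6 and 65.6 TPM in GILZ KO, and 103, 103 and 133 TPM in GILZ TG. The GILZ KO libraries were therefore the lowest, without overlap with either other genotype.

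**Figure D2:**
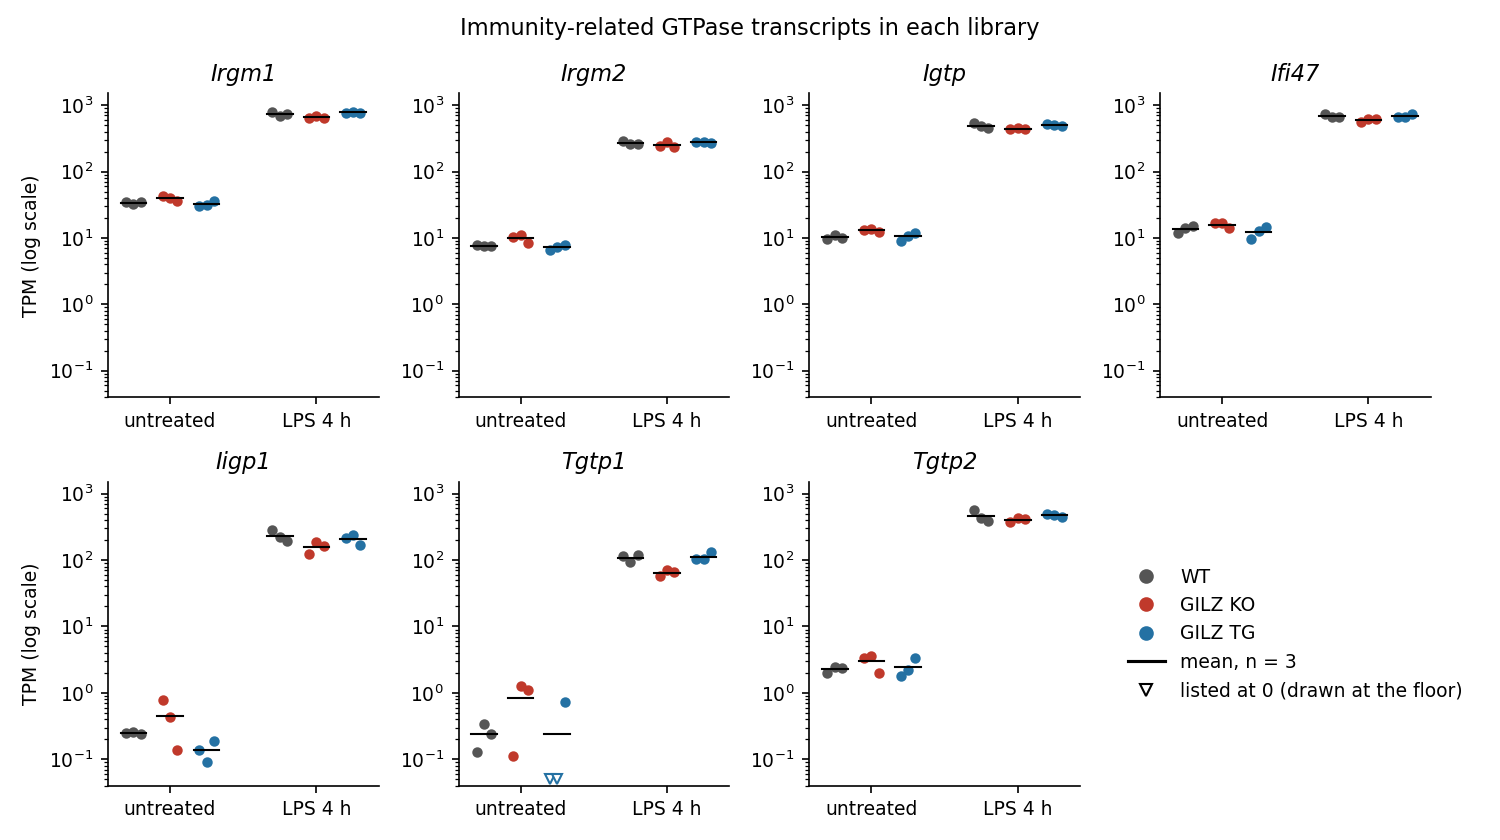
TPM of the 7 members on a log axis, untreated and after 4 h of LPS, in WT (grey), GILZ KO (red) and GILZ TG (blue). Points are libraries, bars the mean of 3, and open triangles at the floor are libraries listed at 0. All LPS libraries lie above all untreated libraries for each member.

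All 7 members rose with LPS in each genotype, without overlap on the TPM scale, where 16.3% of all genes did so in WT, 16.4% in GILZ KO and 15.7% in GILZ TG. In edgeR's quasi-likelihood test over 13169 genes the adjusted p was at most 4.37656e-14 in WT, 4.27134e-13 in GILZ KO and 3.50293e-14 in GILZ TG. Among all genes 33.5%, 33.2% and 33.6% were called higher in these 3 comparisons. The median log2 fold change of the members was 6.27 in WT, 5.89 in GILZ KO and 6.40 in GILZ TG, beside -0.02 over all genes in each. In WT each member was among the 275 largest increases. These estimates use counts scaled by TMM. On the TPM scale the median gene had a log2 change of -0.65 in WT, -0.65 in GILZ KO and -0.64 in GILZ TG, so TPM ratios are lower than the fitted folds. The shift from the TMM to the TPM scale was -0.63 in WT, -0.63 in GILZ KO and -0.62 in GILZ TG. The ratio of the mean TPM was 21.6 for Irgm1 and 47.9 for Igtp in WT, and the fitted folds were 33.8 and 73.9. In bulk RNA, a change in the share of cells that express a gene cannot be told apart from a change in RNA per cell.

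**Figure D3:**
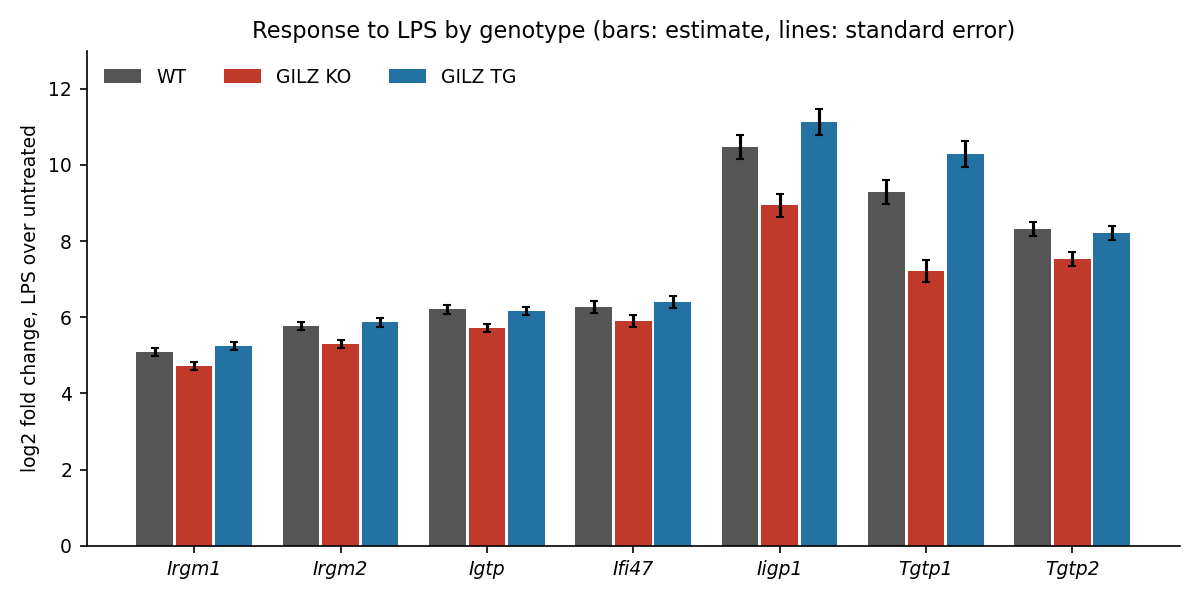
Fitted log2 fold change of LPS over untreated for the 7 members in WT (grey), GILZ KO (red) and GILZ TG (blue). Bars start at 0 and lines are standard errors. The estimate is lowest in GILZ KO for each of the 7 members, and largest for Iigp1 in all genotypes.

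The estimated folds of the effectors were above those of the regulators. In each genotype, the smallest log2 fold change of a GKS member, that of Ifi47, was above the largest of a GMS member, that of Igtp, although these 2 estimates differ by less than their standard errors in WT. The GKS members made up 23.8 ± 2.31% of the summed TPM of the 7 genes in untreated WT, 24.3 ± 0.846% in GILZ KO and 22.9 ± 2.88% in GILZ TG (SD, n = 3). After LPS the shares were 49.7 ± 1.52%, 47.5 ± 1.56% and 48.7 ± 0.541%. The 7 members together amounted to 68.4 ± 1.51 TPM in untreated WT and 2986 ± 267 TPM after LPS. In GILZ KO the sum went from 82.6 ± 7.58 to 2593 ± 145 TPM, and in GILZ TG from 65.5 ± 8.64 to 3028 ± 29.0 TPM.

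In untreated WT the order of levels was Irgm1, Ifi47, Igtp, Irgm2, Tgtp2, Iigp1 and Tgtp1, and among neighbours only the libraries of Iigp1 and Tgtp1 overlapped. After LPS the order in WT was Irgm1, Ifi47, Igtp, Tgtp2, Irgm2, Iigp1 and Tgtp1. There, the ranges of Irgm1 and Ifi47, of Igtp and Tgtp2, and of Irgm2 and Iigp1 overlapped. Within each WT library, however, Irgm1 was above Ifi47 and Irgm2 above Iigp1, while the order of Igtp and Tgtp2 changed between libraries. Tgtp2 thus moved past Irgm2, from 2.29 ± 0.250 against 7.70 ± 0.235 TPM untreated to 461 ± 91.3 against 271 ± 15.7 TPM.

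Next, GILZ KO and GILZ TG macrophages were compared, which have the largest difference in GILZ and a similar, low Lyz2 level. Without treatment, 6 members had enough counts to be tested, all but Tgtp1, and all 6 had estimates above 0 for GILZ KO. The median log2 difference was 0.34, beside -0.00 over all 12621 genes. However, 0 of 6 passed the threshold (adjusted p 0.0551 to 0.321 in edgeR), while 4.94% of all genes did. At an unadjusted p under 0.05 there were 4 of 6, beside 24.6% of all genes. The nearest was Irgm2, with 0.42 ± 0.11 (SE). Iigp1 had the largest estimate, 1.75 ± 0.58, on few counts. On TPM, Irgm2 and Igtp were higher in GILZ KO without overlap, as were 18.6% of all genes. Without the untreated GILZ TG replicate 3, which had the highest member levels of its group, 3 members were called, beside 10.1% of all genes. These members were Irgm1, Irgm2 and Tgtp1, and for Tgtp1 both remaining GILZ TG libraries had 0 counts. Without GILZ TG replicates 1 and 2, the libraries with transcripts listed as markers of other cells, a single GILZ TG library remained and most estimates were close to 0. They were then 0.06 for Irgm1, 0.08 for Igtp, 0.01 for Ifi47 and 0.06 for Tgtp2, beside 0.28 for Irgm2 and 1.24 for Iigp1. This choice was made after seeing the data. With all libraries DESeq2 called 1, Irgm2, beside 9.65% of all genes, and limma called 0.

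After LPS all 7 members had estimates below 0, with GILZ KO the lower group. The median log2 difference was -0.24, beside -0.00 over 12164 genes. Tgtp1 passed the threshold, with -0.86 ± 0.12 (SE, adjusted p = 0.00785 in edgeR), which makes 1 of 7 members beside 2.6% of all genes called in either direction and 1.38% called lower. The call on Tgtp1 depends on how reads are split between the copies, since for the sum of Tgtp1 and Tgtp2 the log2 difference was -0.33 with an adjusted p of 0.111. The other 6 members had differences from -0.38 to -0.13 and adjusted p from 0.0867 to 0.419, and 3 of 7 had an unadjusted p under 0.05, as 19.1% of all genes did. On TPM, Irgm1, Igtp, Ifi47, Tgtp1 and Tgtp2 were lower in GILZ KO without overlap, 5 of 7, beside 9.36% of all genes.

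The response to LPS was therefore compared directly, as the difference of the 2 fold changes in a fit of all 18 libraries. For all 7 members the estimated difference was below 0, with the smaller response on the GILZ KO side, from -0.44 for Igtp to -3.07 for Tgtp1 on the log2 scale. Irgm1 differed by -0.52 ± 0.13 and Irgm2 by -0.56 ± 0.13 (SE). The value of Tgtp1 rests on a single untreated GILZ TG library with counts, replicate 3, without which it became -7.10 against libraries at 0. Without GILZ TG replicates 1 and 2 the difference was -0.36 for Irgm1 and -0.43 for Irgm2, and 0 were called. None of the 7 passed the threshold in edgeR (adjusted p 0.111 to 0.335), beside 0.121% of all genes. The unadjusted p was under 0.05 for 7 of 7 members, and for 9.92% of all genes. The 7 tests use the same libraries and are not independent results. DESeq2 called 4 (Irgm1, Irgm2, Iigp1 and Tgtp1), beside 1.56% of all genes. A fit with genotype and replicate number as a block called 2 (Irgm1 and Irgm2), beside 1.09%. With limma on log2(TPM + 1) 0 were called. Without the untreated GILZ TG replicate 3 edgeR called 2, beside 0.456% of all genes. Without GILZ KO LPS replicate 2 it called 1, beside 0.367%.

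**Figure D4:**
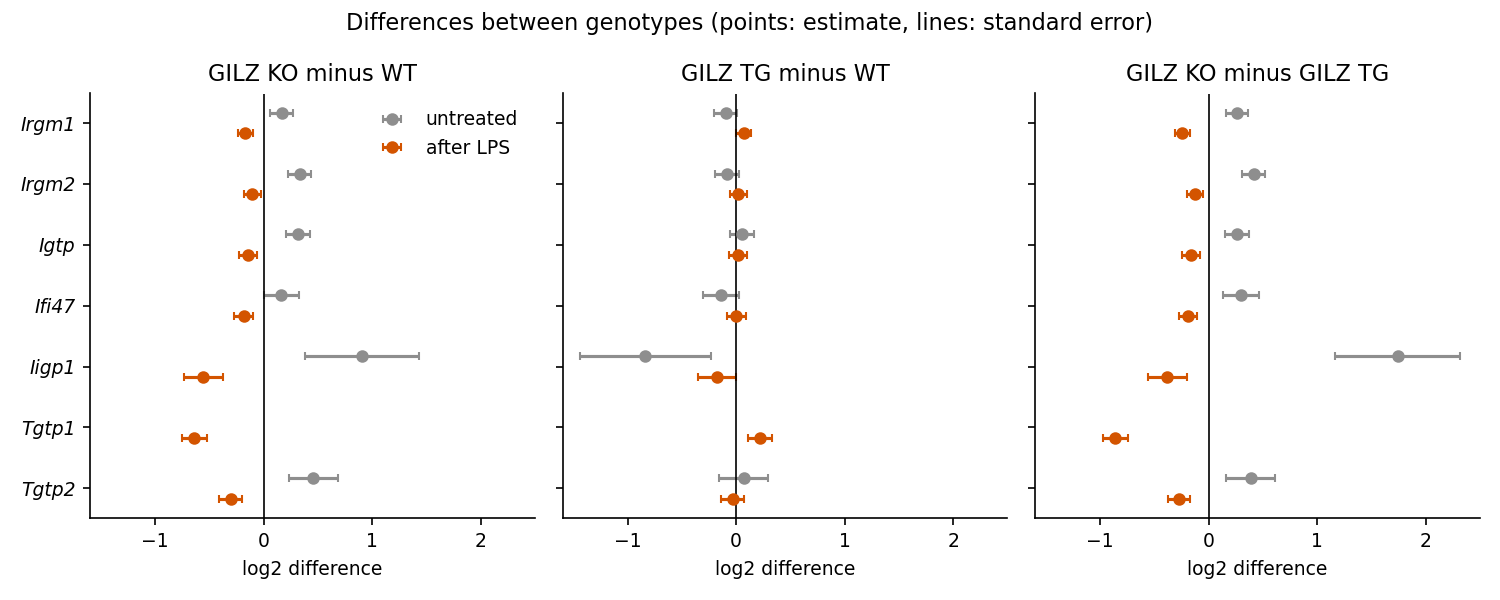
Fitted log2 differences between genotypes for the 7 members, untreated (grey) and after LPS (orange), with lines for standard errors. Tgtp1 had too few counts to be tested untreated. In both comparisons of GILZ KO the untreated estimates are above 0 and those after LPS below 0, and between GILZ TG and WT they lie on both sides of 0.

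In the comparison of GILZ KO with WT the estimates had the same signs. Both comparisons contain the same GILZ KO libraries, so they are not independent. Untreated, the 6 tested members had a median log2 difference of 0.32. In edgeR 0 passed the threshold (lowest adjusted p = 0.404), beside 0.0951% of all genes, and DESeq2 also called 0 members. An unadjusted p under 0.05 was found for 2, beside 9.6% of all genes. Irgm1, Irgm2 and Igtp, the 3 regulators, were higher in GILZ KO without overlap, as were 12.7% of all genes. After LPS the median was -0.19, and 0 of 7 passed, beside 0.0822% of all genes. The lowest adjusted p was that of Tgtp1 at 0.115, with -0.64 ± 0.12 (SE). An unadjusted p under 0.05 was found for 4 of 7 and for 9.63% of all genes. DESeq2 called Tgtp1, beside 0.822% of all genes. For the sum of Tgtp1 and Tgtp2 the log2 difference was -0.33, with an adjusted p of 0.343 in edgeR. Iigp1, Ifi47 and Tgtp1 were lower in GILZ KO than in WT without overlap, as were 6.66% of all genes. The response to LPS differed by -0.36 for Irgm1 to -2.08 for Tgtp1. In edgeR 0 of 7 passed (adjusted p 0.600 to 0.799), beside 0.0152% of all genes, and in DESeq2 1 passed, Tgtp1, beside 0.152%. For the sum of both copies the responses differed by -0.90, with an adjusted p of 0.431 in edgeR. The unadjusted p was under 0.05 for 6 of 7, and for 6.36% of all genes.

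Between GILZ TG and WT no member passed the threshold. Untreated, the log2 differences of the 6 tested members ranged from -0.84 ± 0.60 for Iigp1 to 0.07 ± 0.23 for Tgtp2 (SE). After LPS they ranged from -0.18 ± 0.18 for Iigp1 to 0.22 ± 0.11 for Tgtp1. In edgeR 0 members passed the threshold in either treatment, where 0.642% of all genes passed untreated and 0.46% after LPS. An unadjusted p under 0.05 was reached by 0 members, by 14.1% of all genes untreated and by 15.2% after LPS, and DESeq2 and limma called 0. The difference in the response to LPS also passed for 0 members in these tools, with 0.00759% of all genes past the threshold and 3.09% at an unadjusted p under 0.05. The lowest adjusted p after LPS was 0.391. Iigp1 was lower in untreated GILZ TG without overlap, at 0.0900 to 0.190 against 0.240 to 0.260 TPM, as were 5.1% of all genes.

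The signals upstream of these genes were measured in the same libraries. Ifnb1, the interferon beta gene, was listed at 0 in all untreated libraries. After LPS it was at 11.5, 16.4 and 8.52 TPM in WT, 10.3, 10.6 and 9.77 TPM in GILZ KO, and 18.7, 19.7 and 14.9 TPM in GILZ TG. Ifng, the interferon gamma gene, was listed at 0 in 17 of the 18 libraries and at 0.06 TPM in a WT library after LPS. Among the 18 tested genes of interferons, their receptors and signalling, 16 rose and 2 fell with LPS in each genotype. Irf1, a transcription factor that drives many interferon-induced genes, rose from 29.9 ± 0.896 to 400.4 ± 32.6 TPM in WT, and Stat2 from 20.3 to 309 TPM. When GILZ KO was set against GILZ TG, 0 of 17 genes passed the threshold untreated. After LPS 2 of 18 were called lower with GILZ KO, beside 1.38% of all genes. These were Irf1 with -0.45 ± 0.09 (SE, adjusted p = 0.0323 in edgeR) and Irf8 with -0.57 ± 0.11 (adjusted p = 0.0285). Irf8 was named after its value was seen.

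Other genes of the IRG family behaved in a similar way with LPS. Of the 11 listed, 10 were tested, and 9 rose in each genotype. Gm12250 (Irgb10), an effector that acts on bacteria, rose from 4.22 ± 0.616 to 303 ± 14.8 TPM in WT, and Gm5431 from 3.49 to 151 TPM. Irgq fell in WT (log2 -0.28 ± 0.11, SE) and in GILZ TG and did not pass the threshold in GILZ KO. In untreated cells, 7 were tested. Between GILZ KO and GILZ TG, 4.94% of all genes were called in either direction, and 2 of the 7 were called higher in GILZ KO. These were 9930111J21Rik1 (1.16 ± 0.24, SE, adjusted p = 0.0266 in edgeR) and 9930111J21Rik2 (0.60 ± 0.12, adjusted p = 0.0250). After LPS 1 of 10 was called, beside 2.6% of all genes. This was Gm12185, with -0.62 ± 0.13 (adjusted p = 0.0335 in edgeR). It was named after its value was seen, and 4.77% of the 75-base stretches of Tgtp1 occur in it.

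Guanylate-binding proteins are larger interferon-induced GTPases that join the IRG proteins on pathogen vacuoles. All 8 measured ones rose with LPS in each genotype, with a median log2 fold change of 8.28 in WT, 7.78 in GILZ KO and 8.73 in GILZ TG. Gbp2, the most abundant, rose from 6.89 ± 0.811 to 1340.5 ± 117 TPM in WT. When GILZ KO was set against GILZ TG untreated, 0 of 6 passed the threshold, and the 6 estimates were above 0 with a median of 0.74. After LPS the median of 8 was -0.26, and 1 was called lower, beside 1.38% of all genes. This was Gbp4 (-0.75 ± 0.17, SE, adjusted p = 0.0430 in edgeR), which was named after its value was seen.

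The 12 type I interferon-stimulated antiviral genes rose in each genotype as well. Rsad2, which encodes the antiviral enzyme viperin, went from 10.51 ± 1.38 to 7501 ± 890 TPM in WT. In this list, 4 of 12 were called higher in untreated GILZ KO than in GILZ TG, Ifit1, Ifit2, Ifit3 and Ifih1. Of all genes, 4.94% were called there in either direction. The median log2 difference of the list was 0.89. Rsad2 was at 33.1, 14.3 and 10.7 TPM in untreated GILZ KO, so replicate 1 stood above the others. This was also seen for Ifit1 (16.9, 9.95 and 9.42 TPM), Ifit2 (14.9, 7.74 and 7.86 TPM) and Ifit3 (21.4, 13.3 and 11.8 TPM). Mx2 had 3.01, 1.79 and 1.30 TPM there, while Ifih1 varied less (18.3, 16.6 and 15.5 TPM). How far the calls on these genes rest on replicate 1 was not tested. After LPS, 2 of 12 were called lower in GILZ KO, beside 1.38% of all genes. These were Mx1 (-0.47 ± 0.08, SE, adjusted p = 0.0168 in edgeR) and Mx2 (-0.39 ± 0.08, adjusted p = 0.0285). The response to LPS was smaller in GILZ KO for 12 of 12 estimates and passed the threshold for 2, beside 0.121% of all genes. These were Ifit1 (-1.47 ± 0.24, adjusted p = 0.0237 in edgeR) and Mx2 (-1.69 ± 0.29, adjusted p = 0.0258). Ifit2, Ifit3, Ifih1, Mx1 and Mx2 were named after their values were seen.

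Feedback inhibitors of interferon signalling are induced by the same signal and limit it. All 7 rose with LPS in each genotype on the TMM scale, among them Socs1 from 3.34 to 222 TPM and Usp18 from 4.63 to 787 TPM in WT. Pias1 went the other way on TPM, from 20.8 to 19.3 TPM in WT and without overlap in GILZ KO, from 22.5 to 17.7 TPM, and was named after its value was seen. Of the 7, 0 passed the threshold in either treatment in edgeR when GILZ KO was set against GILZ TG. The ATG8 conjugation machinery helps to place IRG proteins on the right membranes, and its genes were listed with other autophagy genes. Of these 14 genes 6 rose and 4 fell in WT, and the median log2 change was 0.15 on the TMM scale. On TPM, where the median gene had a log2 change of -0.65 in WT, 11 of the 14 were lower after LPS without overlap. The share of all genes lower without overlap is not given here, so this count is not read as particular to these genes. Another 2 were higher without overlap, beside 16.3% of all genes. Here too, 0 of 14 passed the threshold when comparing the knockout and transgenic cells in either treatment. Sqstm1, an autophagy receptor, rose from 860 to 1743 TPM with LPS in WT.

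**Figure D5:**
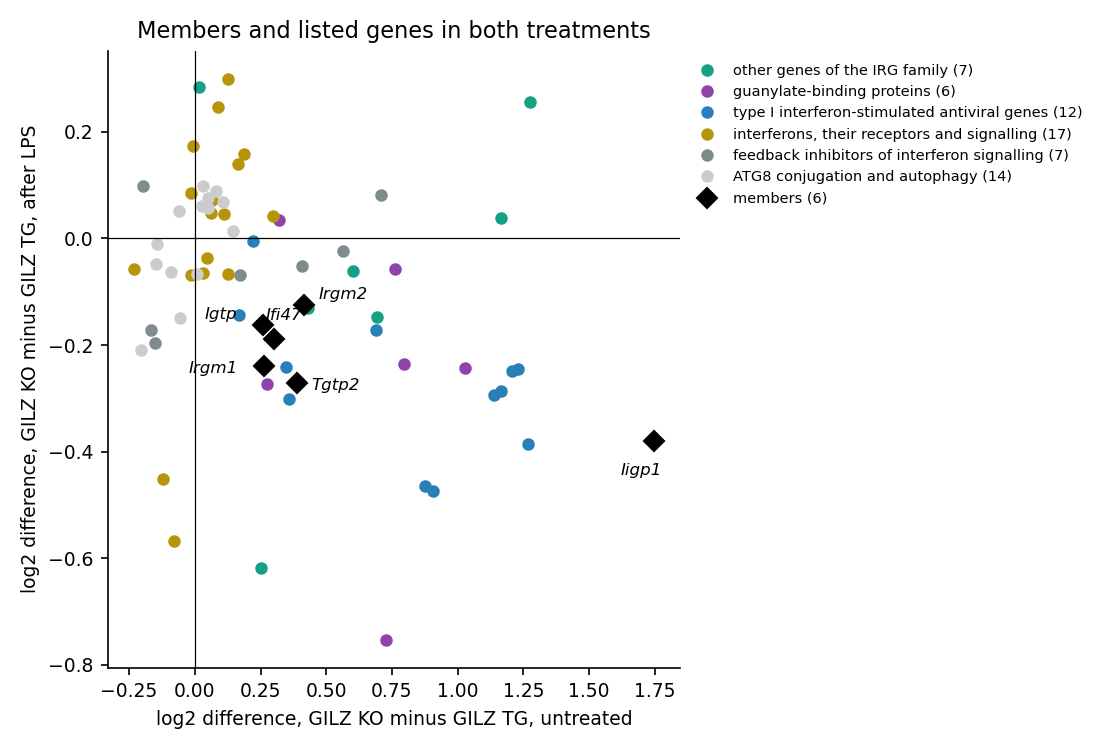
Fitted log2 difference between GILZ KO and GILZ TG in untreated cells (horizontal) and after LPS (vertical) for the 6 members tested in both (black diamonds) and the genes of 6 lists (coloured points). The members lie to the right of 0 and below 0, and the 12 antiviral genes (blue) lie there too.

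Finally, the genes whose levels were most like those of the members were sought among 8852 genes with at least 10 TPM in their highest group. Likeness was the Pearson correlation of log2 CPM, scaled counts, with the mean scaled level of the members over the 18 libraries, with Tgtp1 and Tgtp2 summed. Sp140, Parp9, Xaf1, Trim21 and Trafd1 came first, with 0.9995 for Sp140 and 0.9994 for the fifth. However, the untreated and LPS libraries form 2 separate clusters, and 734 genes reached 0.99. After subtracting the mean of each of the 6 groups, the nearest genes were Nat2 (0.92), Ifi208 (0.90), Tasl (0.87), Rbm43 (0.85) and Syap1 (0.85). Ifi208 belongs to the interferon-inducible p200 family. In this measure Gbp2 had 0.72. These correlations are descriptions over libraries that share their genotypes and treatments.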

How the data were processed

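RNA with poly(A) was sequenced from strand-specific libraries as single reads of 75 bases. The authors mapped the reads with the grape-nf pipeline to GRCm38 (mm10), and the submitters' processing notes name FastQC 0.11.2 and DESeq2 1.40.2. The counting program, its strand setting and the treatment of multimapping reads are not given in the sources used here. The deposited tables hold, per gene and library, an expected count, which is an estimated read number without normalization, and TPM, scaled by effective transcript length and total. Rows without a gene name (1 in each of 14 libraries) held 0% of the counts and were left out. The authors' deposited comparison tables also hold fold changes and p-values of their own tests, which were not used, and only gene symbols were taken from them.

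Rounded expected counts were passed through filterByExpr and TMM scaling, and edgeR 4.0.16 (quasi-likelihood F-test, R 4.3.3) gave the p-values. The LPS comparisons and differences of LPS responses came from a fit of all 18 libraries (13169 genes), and genotype comparisons from the 9 libraries of a treatment (12621 genes untreated, 12164 after LPS). The Benjamini-Hochberg adjustment covered all genes of a fit, and the threshold was 0.05. An exact permutation test of 3 against 3 libraries cannot go below 0.1 and was not used. The pipeline was tested on simulated data. Levels between genes were compared on TPM.

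The 7 members, the gene lists and the tests were chosen with earlier results of these data known. From each list, at most 4 genes of highest mean TPM were to be named. Gbp5, Gbp6 and Gbp10 are not analysed here. Symbols came from the comparison tables for 20997 genes and from the annotation for 16573. The promoter windows are RefSeq's (GRCm38.p6). The labels give no sequencing batch. Alternatives were DESeq2 1.42.0, its size factors, other filters, limma 3.58.1 on log2(TPM + 1) and log2(TPM + 0.1), other sets of libraries, a replicate block, the sum of Tgtp1 and Tgtp2 and leaving out each library. Leaving out GILZ TG replicates 1 and 2 was chosen after seeing the data.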

Additional observations from a re-analysis of the deposited data

Results flagged for a closer look

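Igtp was flagged in the comparison of GILZ KO with GILZ TG, because every GILZ KO library was above every GILZ TG library untreated and below every one after LPS. Of all genes, 18.6% were higher in GILZ KO without overlap untreated, and 9.36% were lower without overlap after LPS. The share of genes with both was not counted. The LPS response of Igtp differed by -0.44 ± 0.14 on the log2 scale between GILZ KO and GILZ TG (SE), the smallest such difference among the 7 members. The test of this difference had an unadjusted p of 0.00474 and an adjusted p of 0.216 in edgeR over 13169 genes, so it did not pass the threshold, and over 27 alternatives the adjusted p ranged from 0.0892 to 0.688.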

How the results depend on the processing

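In all alternatives the 7 members were called higher with LPS in each genotype (6 of 6 with Tgtp1 and Tgtp2 summed). Over 1885 comparisons of a member's value with an alternative, 1830 kept their direction and side of the threshold, 21 passed it only in the alternative, and 34 changed sign. With DESeq2, 1 member was called in the response of GILZ KO against WT, beside 0.152% of all genes. After LPS it called 1 in GILZ KO against WT, beside 0.822%. In the response of GILZ KO against GILZ TG it called 4, beside 1.56%. In these groups it called 1 untreated and 2 after LPS, beside 9.65% and 5.88% of all genes. Without a filter, 1 was called in GILZ KO against WT after LPS, beside 0.44% of all genes. Between GILZ KO and GILZ TG, 1 was called in the response, beside 0.292%, and 1 untreated, beside 4.34%. With only the 6 libraries compared, 1 was called in GILZ KO against WT after LPS, beside 0.227% of all genes. With all 18 libraries in 1 fit, 1 was called in GILZ KO against GILZ TG untreated, beside 4.3%. With Tgtp1 and Tgtp2 summed, 0 were called in GILZ KO against GILZ TG after LPS, beside 2.59% of all genes. The cause of these changes was not tested.

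Leaving out single libraries gave 0 to 1 calls in GILZ KO against WT after LPS. The 1 call came without GILZ TG LPS replicate 3, beside 0.2% of all genes. In the response of GILZ KO against GILZ TG there were 0 to 2 calls, and 0 to 3 in these groups untreated. The highest counts came without the untreated GILZ TG replicate 3, beside 0.456% of all genes in the response and 10.1% untreated. The replicate block gave 2 calls in the response of GILZ KO against GILZ TG, beside 1.09% of all genes, and changed no other call. The correlation of deviations from the group means was above 0.1 in 6 of 9 pairs of an untreated and an LPS library with the same number, including the 3 pairs of GILZ TG (0.313 to 0.659), and in 3 of 18 pairs across genotypes. Not every pair was above 0.1, and the main fits did not treat the numbers as pairs. This rule cannot show that the libraries are unpaired, because replicates that differ little have little to correlate. If the numbers do mark pairs, the main LPS tests leave the pairing out, and the fit with the replicate block includes it.

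Changes of sign were all in GILZ TG against WT. After LPS, Ifi47 became -0.00315 with DESeq2, -0.0031 with its size factors, -0.0057 without a filter, -0.00236 with the 6 libraries compared, -0.0083 with all 18 in 1 fit and -0.000148 with the replicate block. Tgtp2 after LPS became 0.0485 on log2(TPM + 1) and 0.0486 on log2(TPM + 0.1), and on log2(TPM + 1) the difference of responses became -0.0348 for Iigp1 and 0.00333 for Tgtp2. Without GILZ TG replicates 1 and 2, chosen after seeing the data, the difference of responses became -0.0321 for Irgm2, -0.0926 for Iigp1, -0.0105 for Ifi47 and -0.343 for Tgtp1, and the untreated difference 0.109 for Irgm1, 0.0466 for Irgm2 and 0.157 for Ifi47, and no count of calls changed. The responses of Iigp1 and Tgtp1 there were 0.66 and 1.00 with all libraries. Leaving out single libraries, the untreated difference ranged from -0.305 to 0.0117 for Ifi47, -0.0428 to 0.162 for Igtp and -0.122 to 0.18 for Tgtp2. After LPS it ranged from -0.0690 to 0.0565 for Ifi47, -0.0626 to 0.0885 for Igtp, -0.0260 to 0.0685 for Irgm2 and -0.137 to 0.0956 for Tgtp2. The difference of responses ranged from -0.133 to 0.0789 for Igtp and -0.206 to 0.11 for Tgtp2.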
